A study of Mus musculus with 9 samples.

Results

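The mitochondrial ribosomal proteins were taken as every gene of the expression table whose symbol begins with Mrpl or Mrps followed by a number and whose mean level over the 9 libraries was at least 1 TPM (a unit that divides reads by transcript length and scales each library to the same total). This gave 78 of 18738 genes, 49 named Mrpl for the large subunit and 29 named Mrps for the small subunit. The level rule left out 0 genes, and the lowest member, Mrpl17, had a mean of 7.84 TPM. The libraries came from cardiomyocytes of wild-type C57BL/6J mouse pups, isolated from the heart at postnatal day 0. From conception until birth the dams received, by random allocation, the normal diet (abbreviated ND), a slight high-fat diet (abbreviated sHFD) or the high-fat diet (abbreviated HFD), with 3 libraries for each. The sources used here name no altered allele of the pups and do not give the diets' composition. The labels do not say whether the 3 libraries of a diet came from separate litters, animals or pools, so the p-values weigh differences against a spread among libraries that may be only technical. The series ties its diets to the newborn heart muscle cell, and the comparisons asked whether the genes of the organelle's own ribosome differed with the diet of the mother.

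The mitochondrial ribosome translates the few respiratory chain proteins that mitochondrial DNA encodes, and it sits at the inner membrane into which these proteins are inserted. Its ribosomal RNA comes from mitochondrial DNA, whereas all of its proteins are encoded in the nucleus, made on cytosolic ribosomes and imported. Part of the proteins descend from bacterial ribosomal proteins and part were gained in the mitochondrial lineage. Heart muscle depends on this system for its respiratory chain, and inherited defects of several members, among them MRPL3, MRPL44 and MRPS22 in humans, are known to affect the heart. Names and places do not always match. Mrps30 and Mrps18a carry small-subunit names but are parts of the large subunit, and Mrps36 is now regarded as a subunit of the 2-oxoglutarate dehydrogenase complex. The groups below follow the names.

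Nuclear respiratory factor 1 (NRF1), the ETS-family factor GABP and YY1 are known regulators of nuclear genes for mitochondria. Their short core letters were therefore looked for in the stretch from 250 bases before to 50 bases after each start in RefSeq (GRCm38.p6), on both strands. Of the 78 members, 69 had such a window, 75 windows in all. The ETS core CCGGAAG stood in 34.7% of the member windows, against 16.2% of the windows of all genes tested and 8.86% of all 32851 windows. The YY1 core AAGATGG stood in 17.3%, against 6.62% and 6.34%. The NRF1 core GCGCATGCG stood in 9.33%, against 3.29% and 1.75%. The shorter NRF1 letters GCATGCGC, which overlap that core, stood in 10.7%, against 4.77% and 2.71%. The E-box CACGTG stood in 9.33%, against 9.57% and 7.15%. A match describes letters and shows no binding.

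The 250 bases upstream of the start are printed for 5 large-subunit members, chosen after their values were seen to show different courses over the diets with and without the cores, 5′ to 3′ on the strand of the gene with matched cores in capitals. Mrpl36 (chr13:73330759-73331008, plus strand) and Mrpl47 (chr3:32736756-32737005, minus strand) had the widest range of all members. Mrpl17 (chr7:105811088-105811337, minus strand) was lower in HFD than in sHFD, and Mrpl22 (chr11:58171414-58171663, plus strand) and Mrpl9 (chr3:94443086-94443335, plus strand) ran the other way without passing the test. The start is that of the promoter window. The stretches of Mrpl36 and Mrpl22, and part of that of Mrpl9, lie inside the RefSeq span of the gene itself.
Mrpl36: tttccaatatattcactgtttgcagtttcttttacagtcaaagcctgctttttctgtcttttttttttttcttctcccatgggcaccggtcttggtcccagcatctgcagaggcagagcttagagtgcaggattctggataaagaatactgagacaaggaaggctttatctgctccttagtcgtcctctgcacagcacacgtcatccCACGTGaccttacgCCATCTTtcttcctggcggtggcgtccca
Mrpl47: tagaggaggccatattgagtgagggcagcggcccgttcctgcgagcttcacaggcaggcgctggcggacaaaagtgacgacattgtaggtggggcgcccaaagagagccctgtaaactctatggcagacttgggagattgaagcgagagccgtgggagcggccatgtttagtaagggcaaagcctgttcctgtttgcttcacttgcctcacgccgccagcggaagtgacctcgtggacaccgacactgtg
Mrpl17: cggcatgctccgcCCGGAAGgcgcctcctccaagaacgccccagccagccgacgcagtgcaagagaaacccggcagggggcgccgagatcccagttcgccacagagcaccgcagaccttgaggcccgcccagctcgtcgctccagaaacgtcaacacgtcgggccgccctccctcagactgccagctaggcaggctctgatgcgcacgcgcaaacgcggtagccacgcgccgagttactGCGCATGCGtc
Mrpl22: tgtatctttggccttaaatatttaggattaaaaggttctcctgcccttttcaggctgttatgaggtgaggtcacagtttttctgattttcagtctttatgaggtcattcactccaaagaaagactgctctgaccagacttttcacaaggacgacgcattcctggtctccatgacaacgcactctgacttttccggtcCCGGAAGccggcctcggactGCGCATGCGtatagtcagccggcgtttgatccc
Mrpl9: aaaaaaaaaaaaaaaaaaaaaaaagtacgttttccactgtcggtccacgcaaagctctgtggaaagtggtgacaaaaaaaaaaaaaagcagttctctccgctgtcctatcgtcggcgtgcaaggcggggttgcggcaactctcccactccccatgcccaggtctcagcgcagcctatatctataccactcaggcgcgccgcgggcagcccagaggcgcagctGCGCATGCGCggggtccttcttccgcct
In Mrpl36 the capitals mark an E-box and, after it, the YY1 core read on the opposite strand. Mrpl47 held none of the cores. Mrpl17 and Mrpl22 each held an ETS core and an NRF1 core. They were chosen for their opposite directions between HFD and sHFD, so nothing about the cores follows from the pair. In Mrpl9 the NRF1 core stands on both strands in overlapping letters. The ETS core was found in 34.8% of the windows of members called lower in HFD than in sHFD and in 34.6% of the windows of the other members. In the same order the YY1 core had 17.4% and 17.3%, and the NRF1 core 8.7% and 9.62%. The shorter NRF1 letters had 8.7% and 11.5%, and the E-box had 4.35% (1 of 23 windows) and 11.5% (6 of 52). Whether these shares differ was not tested.

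All 78 members were above 0 in each of the 9 libraries. Their mean levels ran from 7.84 TPM for Mrpl17 to 195 TPM for Mrpl42, with 8 members under 20 TPM, 63 between 20 and 100 TPM and 7 over 100 TPM. The median member stood at 52.7 TPM, with 55.3 TPM for Mrpl and 50.7 TPM for Mrps, so both subunits were present at like levels. The median of all 13655 genes tested was 23.7 TPM. The members were low beside other large complexes: the median of 83 nuclear respiratory chain genes was 423 TPM, and that of 79 cytosolic ribosomal protein genes was 1108 TPM.

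At the top of the large subunit stood Mrpl42, a protein of the mitochondrial lineage, with 133, 221 and 198 TPM in ND, 300, 199 and 254 TPM in sHFD, and 164, 171 and 119 TPM in HFD. Mrpl12, the stalk protein that recruits translation factors and that is also known to bind the mitochondrial RNA polymerase, followed with a mean of 163 TPM and a range of 99.2 to 239 TPM. Mrpl33, a small protein with a bacterial homologue, had a mean of 144 TPM. At the top of the small subunit stood Mrps23 with 127 TPM, Mrps21 with 112 TPM and Mrps18c with 90.0 TPM. The lowest of the large subunit were Mrpl17, Mrpl19 with 10.8 TPM and Mrpl35 with 11.6 TPM, and the lowest of the small subunit were Mrps25 with 11.1 TPM, Mrps14 with 19.9 TPM and Mrps22 with 24.0 TPM. In the middle of the range stood members fixed for their known role. Mrps12, which lines the decoding centre, had a mean of 38.8 TPM, Mrpl44, which sits near the exit of the peptide tunnel, 38.6 TPM, and Mrps7, a protein of the small subunit's head, 49.0 TPM.

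The members did not all follow the same course over the 9 libraries. The highest library exceeded the lowest by a median of 1.71-fold, from 1.10-fold to 4.17-fold. Mrpl37, a large-subunit protein of the mitochondrial lineage, lay at the steady end, with levels between 57.1 and 66.2 TPM. Of the 78 members, 40 had their lowest level in HFD replicate 3 and 16 in ND replicate 1, whereas 29 had their highest level in sHFD replicate 1 and 24 in sHFD replicate 3. Across the 9 libraries the pairwise Pearson correlation of log2(TPM + 1) had a median of 0.502 among Mrpl genes, 0.632 among Mrps genes and 0.582 between the subunits. With the median of all genes subtracted from each library these medians were 0.566, 0.622 and 0.594. The points share their libraries and diets, and the values are descriptions only.

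**Figure D1:**
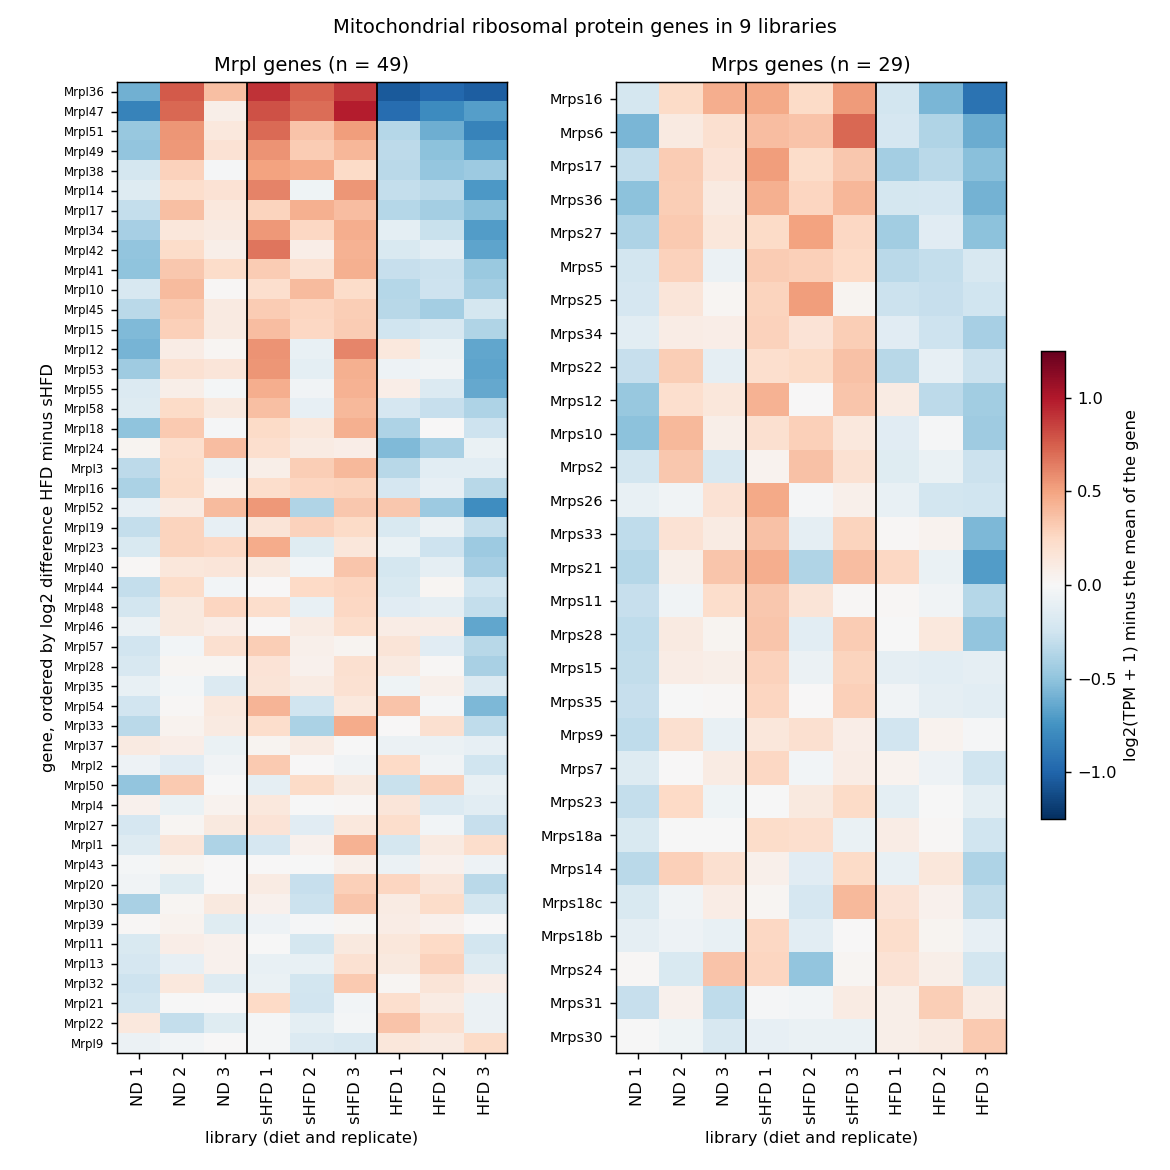
Heat map of log2(TPM + 1) of each member minus its own mean over the 9 libraries (colour), with genes in rows and libraries in columns by maternal diet, for 49 Mrpl genes on the left and 29 Mrps genes on the right. Genes are ordered by their difference between HFD and sHFD; Mrpl36 and Mrpl47 head the order, most upper rows are high in sHFD and low in HFD, and Mrpl9 and Mrps30 close the 2 panels with their highest levels in HFD.

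Closest to the mean of the other members were Mrps36, with a Pearson correlation of 0.988 over the 9 libraries, and Mrpl42, with 0.981. At the other end were Mrps30 with -0.768, Mrpl9 with -0.66, Mrpl22 with -0.427 and Mrpl39 with -0.273. These are again descriptions over libraries that share their diets, with no test.

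The test was limma on log2(TPM + 1) over the 13655 genes that averaged 1 TPM or more, with Benjamini-Hochberg adjustment over all of them, and a gene was called at an adjusted p of 0.05 or less. The comparisons share libraries: HFD and sHFD were each compared with the same ND libraries, and HFD vs sHFD uses the libraries of both. Their values are therefore not independent of each other.

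Between HFD and sHFD, 25 of the 78 members were called lower in HFD and 0 were called higher (limma). By name these were 16 of 49 Mrpl genes and 9 of 29 Mrps genes. Of all genes tested, 23.9% were called lower and 10.3% higher, beside 32.1% and 0.0% of the members, so the share called lower was not far above that of all genes. At an unadjusted p under 0.05, 33 members were lower and 1, Mrpl9, was higher, where 30.9% and 14.7% of all genes were. The libraries of the diets did not overlap in 39 members that were lower and 2 that were higher in HFD, Mrpl9 and Mrps30, beside 34.7% and 16.6% of all genes. The sign was negative for 67 members and positive for 11, but the median of all genes was itself negative. Against that median, 56 members lay below and 22 above. The median log2 difference was -0.39 for Mrpl and -0.33 for Mrps, against -0.16 over all genes tested.

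Mrpl36, a small protein of the large subunit with a bacterial homologue, differed most. Its levels were 41.8, 36.9 and 41.0 TPM in sHFD and 10.0, 10.5 and 10.2 TPM in HFD. The HFD libraries lay close together and far below every sHFD library. In ND it stood at 14.1, 37.9 and 28.5 TPM, all above the HFD libraries, with replicate 1 nearest to them. The log2 difference between HFD and sHFD was -1.86 (SE 0.27, adjusted p = 0.0012, limma). Mrpl36 lies at chr13:73328503-73332178 (GRCm38.p6). Its exons overlap on the opposite strand with those of Ndufs6, a subunit of complex I. Whether the counting used strand is not given in the sources used here, so reads of the 2 genes may not have been told apart.

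Mrpl47, a large-subunit protein by the exit of the peptide tunnel, had a like course. It stood at 36.2, 33.7 and 41.3 TPM in sHFD and at 10.0, 11.4 and 12.3 TPM in HFD, with no overlap. The ND libraries spread over the whole range, with 11.0, 34.2 and 21.5 TPM. The log2 difference between HFD and sHFD was -1.64 (SE 0.30, adjusted p = 0.0024, limma). The gene, at chr3:32727497-32736755, shares exon sequence on opposite strands with Ndufb5, another complex I subunit, and with Actl6a, so its level carries the same uncertainty. In neither of these neighbours were the diets apart. Ndufs6 stood at 343, 151 and 217 TPM in sHFD and at 227, 173 and 114 TPM in HFD, and its log2 difference was -0.44 (SE 0.28, adjusted p = 0.242, limma). For Ndufb5 the log2 difference was -0.23 (SE 0.19, adjusted p = 0.351, limma).

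Mrpl51, a protein of the mitochondrial lineage at chr6:125192200-125194392, was at 85.2, 66.5 and 74.7 TPM in sHFD and at 40.0, 33.5 and 28.4 TPM in HFD. Every HFD library was below every sHFD library, and ND, with 36.9, 76.1 and 56.5 TPM, overlapped with both. The log2 difference was -1.14 (SE 0.23, adjusted p = 0.0038, limma). Mrpl36, Mrpl47 and Mrpl51 were the 3 members called lower by at least 2-fold. Mrpl38, which belongs to the central protuberance of the large subunit, stood at 60.2, 58.5 and 49.8 TPM in sHFD and at 33.1, 29.9 and 30.4 TPM in HFD. Its log2 difference was -0.83 (SE 0.17, adjusted p = 0.0038, limma).

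In the small subunit Mrps16 had the largest difference. This core protein with a bacterial homologue, at chr14:20391222-20393634, stood at 74.5, 63.5 and 78.0 TPM in sHFD and at 45.4, 35.7 and 27.9 TPM in HFD. The diets did not overlap, and the log2 difference was -0.99 (SE 0.21, adjusted p = 0.0046, limma). Mrps6, also with a bacterial homologue, stood at 55.9, 54.7 and 70.6 TPM in sHFD and at 36.7, 32.4 and 27.3 TPM in HFD, again without overlap. Its log2 difference was -0.89 (SE 0.21, adjusted p = 0.0079, limma). The exons of Mrps6 overlap with those of Slc5a3 and Gm49711 on the same strand. Counting by strand could not tell such reads apart, so its level is uncertain too. Mrps17, a primary binder of the ribosomal RNA in its bacterial form, stood at 71.1, 57.9 and 62.0 TPM in sHFD and at 36.3, 38.5 and 33.8 TPM in HFD.

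Several members chosen for their known role were among those called lower. Mrpl3, of the large subunit's core, had a mean of 97.6 TPM ± 11.4 (SD, n = 3) in sHFD and 70.1 TPM ± 6.05 in HFD. Mrps22, of the mitochondrial lineage, had 28.7 TPM ± 1.76 and 19.9 TPM ± 1.80. Mrps34 had 75.4 TPM ± 3.72 and 52.1 TPM ± 4.88, Mrps5 had 74.2 TPM ± 1.86 and 49.8 TPM ± 2.41, and Mrpl10, the base of the stalk, had 62.5 TPM ± 4.58 and 40.2 TPM ± 2.35. In each of these the diets did not overlap. Not called were Mrpl44, with 43.3 TPM ± 4.30 and 34.8 TPM ± 3.63, and Mrps7, with 52.8 TPM ± 5.62 and 45.9 TPM ± 4.76. Mrpl12 was not called either, at 206 TPM ± 51.3 in sHFD and 139 TPM ± 36.9 in HFD.

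By origin, 13 of the 47 members with a bacterial homologue and 12 of the 31 others were called lower, with medians of -0.30 and -0.39. Both subunits and both origins therefore held called and uncalled members. Among the levels of the called members, the highest was that of Mrpl42 and the lowest that of Mrpl17, which stood at 9.35, 10.6 and 10.2 TPM in sHFD and at 5.68, 5.36 and 4.94 TPM in HFD.

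**Figure D2:**
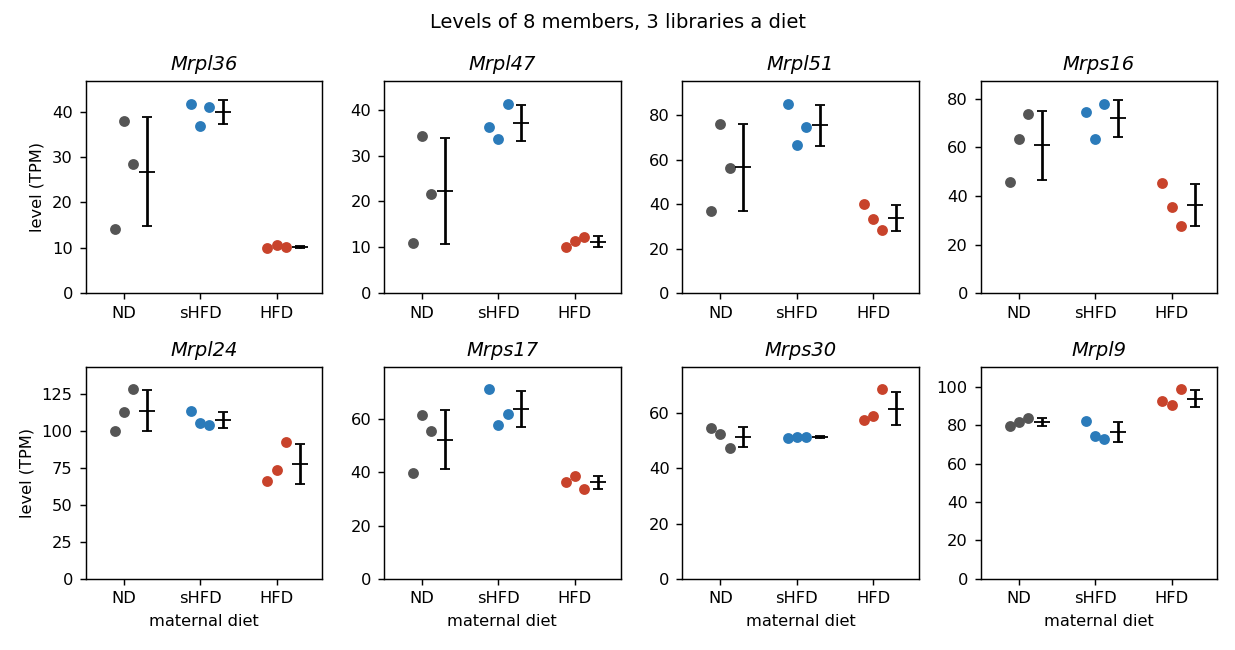
Level in TPM of 8 members in each library (points) by maternal diet, with the mean and SD of the 3 libraries (bar with whiskers) and each axis starting at 0. The HFD points lie below all sHFD points for the first 6 genes, Mrpl36 to Mrps17, and above all sHFD points for Mrps30 and Mrpl9.

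A few members ran the other way. Mrpl9, a large-subunit protein with a bacterial homologue, stood at 82.5, 74.2 and 72.6 TPM in sHFD and at 92.6, 90.5 and 98.7 TPM in HFD. The HFD libraries were above all sHFD libraries and above the ND libraries at 79.6, 81.8 and 83.9 TPM. The log2 difference between HFD and sHFD was 0.29 (SE 0.14, adjusted p = 0.107, limma), which did not pass. Mrps30 stood at 50.8, 51.5 and 51.4 TPM in sHFD, at 54.5, 52.5 and 47.2 TPM in ND and at 57.4, 58.9 and 68.6 TPM in HFD, so HFD was again highest without overlap. Its difference from sHFD was 0.26 (SE 0.14, adjusted p = 0.183, limma). Mrpl22, which lines the peptide tunnel, stood at 59.9, 54.0 and 44.4 TPM in HFD and overlapped with sHFD at 45.8, 42.7 and 46.0 TPM. Its difference was 0.22 (SE 0.17, adjusted p = 0.328, limma).

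TPM sets each gene against the sum of the library, and another scaling moved these counts. With median-ratio scaling, which brought the median difference of all genes from -0.16 to -0.01, 15 members were called lower and 2 higher, Mrpl9 and Mrps30, while 19.2% of all genes were called lower and 19.0% higher. The count called lower also depended on single libraries: it was 13 (16.7%, beside 17.6% of all genes) when sHFD replicate 1 was left out and 16 (20.5%, beside 22.4%) when HFD replicate 3 was, shares that no longer exceeded those of all genes. It was 15 (19.2%) when sHFD replicate 3 was left out, beside 16.9%, and 15 when HFD replicate 2 was, beside 14.3%.

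Of the 25 members called lower, 11 were called in all 9 fits that each left out a library, namely Mrpl14, Mrpl17, Mrpl34, Mrpl36, Mrpl38, Mrpl47, Mrpl49, Mrpl51, Mrps6, Mrps16 and Mrps17. Mrpl3 was called in 2 of these fits, and its highest adjusted p among them was 0.165 (limma).

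Between HFD and ND, 3 members were called lower, Mrpl36, Mrps16 and Mrpl24, and 0 higher (limma). Over all genes tested 9.59% were called lower and 1.28% higher, beside 3.85% and 0.0% of the members, so the members' share was below the background. At an unadjusted p under 0.05, 12 members were lower and 1, Mrps31, was higher, beside 23.4% and 6.37% of all genes. The median log2 difference was -0.15 for Mrpl and -0.15 for Mrps, next to -0.14 over all genes, and with median-ratio scaling these became 0.01 and 0.0 for the subunits and 0.01 for all genes. Of the 78 members, 41 lay below and 37 above the median of all genes.

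Mrpl36, whose libraries are given above, was lower in HFD than in ND by a log2 difference of -1.20 (SE 0.27, adjusted p = 0.0194, limma). Mrps16 stood at 45.7, 63.4 and 73.8 TPM in ND, just above the HFD libraries, the highest of which was at 45.4 TPM. The log2 difference was -0.73 (SE 0.21, adjusted p = 0.0433, limma). Mrpl24, which in its bacterial form starts the assembly of the large subunit, stood at 99.8, 113 and 128 TPM in ND and at 66.0, 73.6 and 92.2 TPM in HFD, with no overlap. Its log2 difference was -0.56 (SE 0.16, adjusted p = 0.0447, limma). Its exons share sequence with Rrnad1 on the opposite strand. In sHFD it stood at 113, 105 and 104 TPM, close to ND.

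Higher levels in HFD than in ND without overlap were seen in Mrps31, Mrps30 and Mrpl9, 3 of 78 members, and lower levels without overlap in 13, where 5.0% of all genes tested were higher without overlap and 22.9% lower. None of the 3 higher members was called. Mrps31 stood at 45.6, 53.9 and 46.6 TPM in HFD and at 35.1, 45.0 and 34.5 TPM in ND, a log2 difference of 0.35 (SE 0.16, adjusted p = 0.162, limma). For Mrps30 the log2 difference was 0.26 (SE 0.14, adjusted p = 0.254, limma). The 3 calls rested on the setting: under median-ratio scaling Mrpl36 alone was called lower (adjusted p = 0.0313, limma) and Mrps31 was called higher (log2 difference 0.50, adjusted p = 0.0443, limma). Without ND replicate 1, 16 members (20.5%) were called lower, as were 20.9% of all genes. Without ND replicate 2, ND replicate 3, HFD replicate 1 or HFD replicate 2 the count was 0, and 3.98%, 0.249%, 0.857% and 0.205% of all genes were called lower, so the members' count moved with that of the whole table.

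Between sHFD and ND no member was called in either direction (limma), where 0.0% of all genes were called higher and 0.00732% lower. At an unadjusted p under 0.05, 5 members were higher, Mrpl34, Mrpl36, Mrpl38, Mrpl47 and Mrps6, and 0 were lower, beside 3.7% and 3.66% of all genes. In 6 members all sHFD libraries lay above all ND libraries and in 0 below, beside 4.5% and 4.9% of all genes. The sign was positive for 72 members and negative for 6, and the median log2 difference was 0.18 for Mrpl and 0.21 for Mrps, beside 0.00 over all genes. Among the 83 nuclear respiratory chain genes the sign was positive for 80 and negative for 3, with a median of 0.34. The 79 cytosolic ribosomal protein genes had a median of -0.12. Over all members the median was 0.21, and 0.08 without ND replicate 1. The largest was that of Mrpl47, with a log2 difference of 0.84 (SE 0.30, adjusted p = 0.672, limma), whose ND and sHFD libraries overlapped. Mrps6 was at 28.3, 45.9 and 49.0 TPM in ND, below all sHFD libraries, a log2 difference of 0.58 (SE 0.21, adjusted p = 0.672, limma). Mrps24, with -0.13 (SE 0.21, adjusted p = 0.882, limma), had the lowest difference, which turned positive without ND replicate 3 or sHFD replicate 2. Without ND replicate 2, which had the highest ND level of Mrpl47, that gene was called higher in sHFD (log2 difference 1.20, adjusted p = 0.0254, limma).

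**Figure D3:**
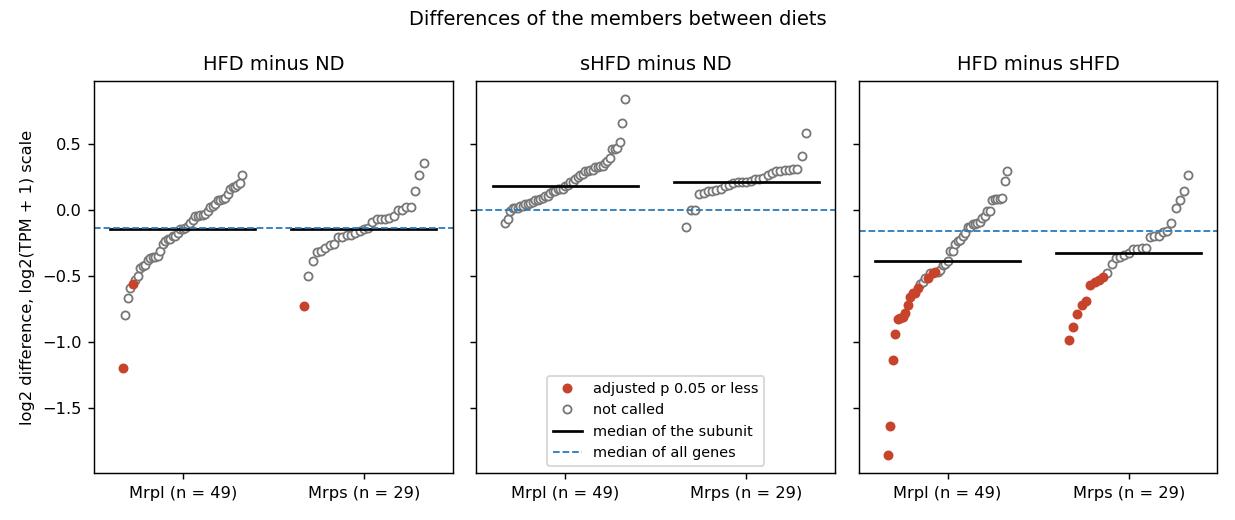
Log2 difference of each member on the log2(TPM + 1) scale in the 3 comparisons, by subunit, with called members filled and the others open, the median of each subunit as a black line and the median of all genes tested as a dashed line. Members called lower number 3 for HFD minus ND, 0 for sHFD minus ND and 25 for HFD minus sHFD, and in the last the subunit medians lie below the dashed line.

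The members' level in a library moved with other features of that library. The mean log2(TPM + 1) of the 78 members was 5.35, 5.77 and 5.68 in ND, 5.87, 5.68 and 5.87 in sHFD and 5.51, 5.50 and 5.27 in HFD, so ND replicate 1 lay beside the HFD libraries. Summed, the members made up 0.358% to 0.547% of the library total. A list of 17 immediate-early and heat-shock genes, known to respond quickly to handling, heat or dissociation of cells, had means of 8.98, 6.70 and 7.96 in ND, 6.76, 6.84 and 6.94 in sHFD and 8.54, 8.47 and 9.14 in HFD. ND replicate 1 was again beside the HFD libraries. All 17 genes were called higher in HFD than in sHFD (limma), beside 10.3% of all genes. Part of this list was known from earlier results of these data to move with the diets, and its part in the members' differences was not tested.

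**Figure D4:**
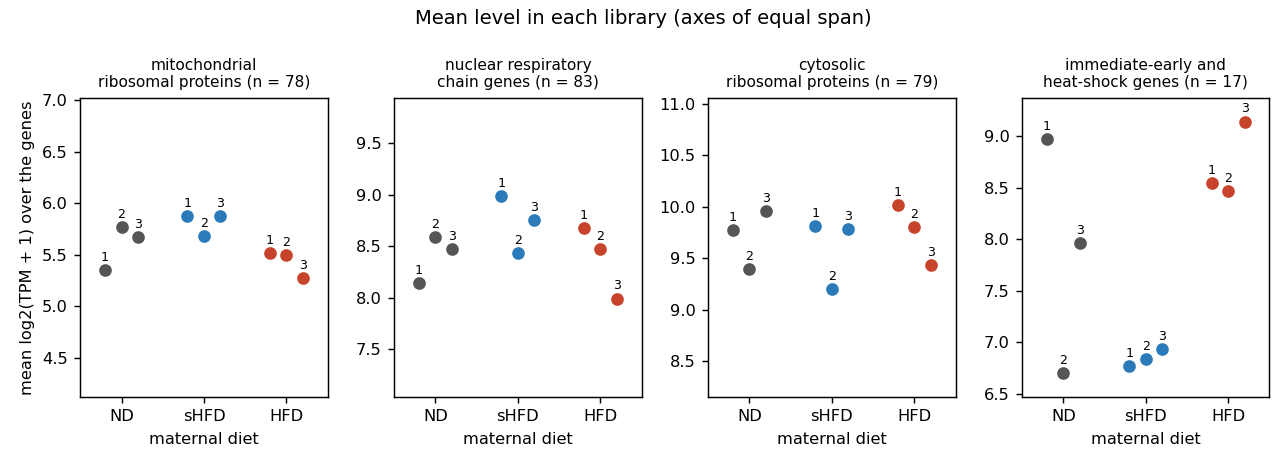
Mean log2(TPM + 1) in each library (points, numbered by replicate) by maternal diet for the 78 members, 83 nuclear respiratory chain genes, 79 cytosolic ribosomal protein genes and 17 immediate-early and heat-shock genes, on axes of equal span. The members lie between 5.27 and 5.87, with ND replicate 1 and HFD replicate 3 lowest, and the same 2 libraries are highest for the immediate-early and heat-shock genes at 8.98 and 9.14.

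Markers of heart muscle and of other cells in the isolate were checked beside these levels. The summed level of 11 cardiomyocyte markers was 20495 to 32339 TPM in ND, 33493 to 41144 TPM in sHFD and 25705 to 31261 TPM in HFD. None of them was at 0, as the labelled cell type implies, and the sum was highest in sHFD with no overlap with the other diets. Single markers went different ways. Beside the calls that follow, 23.9% of all genes were called lower and 10.3% higher in HFD than in sHFD. In HFD vs ND these shares were 9.59% and 1.28%. Myh7 was called higher in HFD than in ND and than in sHFD, and Pln was called lower in HFD than in sHFD (limma). Fibroblast markers (6 genes) summed to 6684 to 8833 TPM in ND, 5531 to 7507 TPM in sHFD and 6671 to 7503 TPM in HFD. Endothelial markers (6 genes) summed to 2564 to 4012, 2579 to 2786 and 2947 to 3303 TPM, and markers of smooth muscle and pericytes (6 genes) to 1070 to 1350, 1479 to 2140 and 1141 to 1342 TPM, in the same order of diets. Of the endothelial markers, Kdr was called lower in HFD than in sHFD (limma). Of the smooth muscle and pericyte markers, 3 (Kcnj8, Pdgfrb and Rgs5) were called lower in HFD than in ND, and 5 of the 6 were called lower than in sHFD (limma). Epicardial markers (4 genes) summed to 215 to 280, 180 to 314 and 364 to 384 TPM, and Msln among them was called higher in HFD than in sHFD (limma). Immune markers (7 genes) summed to 240 to 333, 190 to 240 and 118 to 160 TPM, lowest in HFD, and red cell markers (5 genes) to 4999 to 12243, 5903 to 8295 and 2633 to 4832 TPM. All 7 immune markers were called lower in HFD than in ND, and 4 of them than in sHFD. Of the 5 red cell markers, 1 was called lower in HFD than in ND and 4 than in sHFD (limma). Of 3 lung markers 1 was at 0 in all ND libraries and 2 in all sHFD libraries, and their sum stayed at or below 18.7 TPM. In bulk RNA, fewer cells of a type and less RNA per cell cannot be told apart, and the part of these markers in the members' differences was not tested.

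The members' transcripts are short, with a median of 1052 bases against 2184 bases for all genes tested, as are those of the respiratory chain (659 bases) and the cytosolic ribosome (712 bases). Within a diet, the 26 shortest members, of 405 to 803 bases, were low in a single library each. Their median log2 difference from the other 2 libraries of the diet was -0.41 in ND replicate 1, -0.43 in sHFD replicate 2 and -0.41 in HFD replicate 3. For the 26 members in the middle, of 815 to 1418 bases, these values were -0.37, -0.13 and -0.22. For the 26 longest members, of 1424 to 6073 bases, they were -0.31, -0.07 and -0.09. In sHFD replicate 2 and HFD replicate 3 the fall below the other libraries of the diet was therefore largest in the shortest transcripts and became smaller with length. ND replicate 1 was low at all lengths. Between HFD and sHFD, 7 of the 26 shortest, 9 of the 26 in the middle and 9 of the 26 longest members were called lower, and the median length was 1226 bases for the called and 1018 bases for the other members.

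**Figure D5:**
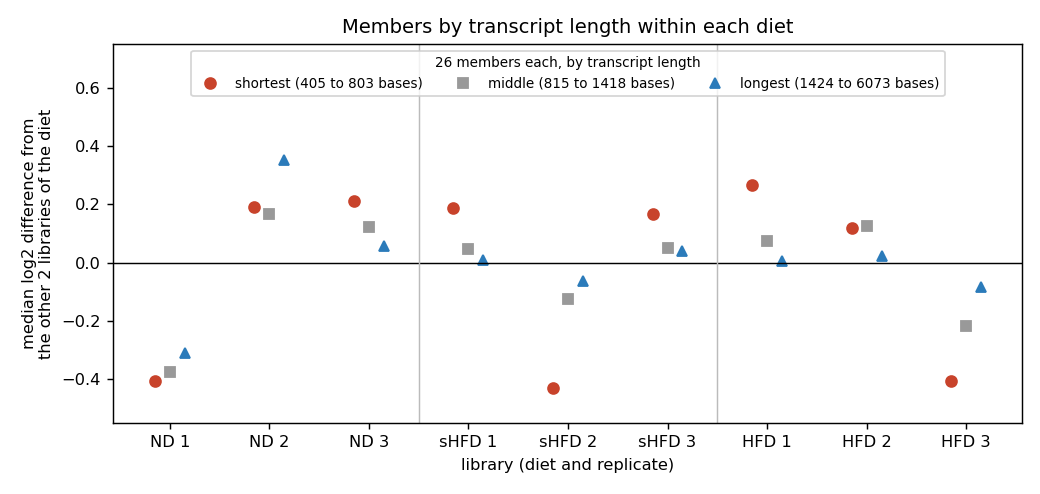
Median log2 difference of each library from the other 2 libraries of its diet, for the 26 shortest, 26 middle and 26 longest members by transcript length (points), with libraries on the horizontal axis. ND replicate 1 is low in all 3 length classes, whereas sHFD replicate 2 and HFD replicate 3 are lowest for the shortest members, at -0.43 and -0.41, and less low for the middle and longest.

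Genes that build or serve the mitochondrial ribosome were counted in the same way. Of all genes, 23.9% were called lower in HFD than in sHFD and 9.59% lower in HFD than in ND. Of 26 genes for its assembly and for modification of its RNA, 9 (34.6%) were called lower in HFD than in sHFD and 0 higher (limma), with a median of -0.34. Mtg2, a GTPase of large-subunit assembly, stood at 18.1, 17.3 and 16.6 TPM in sHFD, 7.54, 15.6 and 13.6 TPM in ND and 6.81, 6.61 and 5.28 TPM in HFD, with no overlap of HFD and either diet. Its log2 difference was -1.35 from sHFD (SE 0.24, adjusted p = 0.0022, limma), and it was the only gene of this list called in HFD vs ND (log2 difference -0.82, SE 0.24, adjusted p = 0.0446, limma). Mtg1, a related GTPase, was at 18.9, 18.5 and 20.8 TPM in sHFD and at 10.1, 9.28 and 10.2 TPM in HFD. Of 5 mitochondrial ribosomal proteins without an Mrp name, Ptcd3 was called lower.

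Of 15 mitochondrial translation factors, 6 (40.0%) were called lower in HFD than in sHFD, Gfm2, Lrpprc, Mtif2, Mtrf1l, Taco1 and Tsfm (limma). In HFD vs ND 0 were called, and 5 were lower at an unadjusted p under 0.05 (limma), beside 23.4% of all genes. Taco1, a translational activator of the cytochrome c oxidase subunit 1, stood at 27.7, 40.9 and 35.7 TPM in sHFD and at 10.9, 12.8 and 9.20 TPM in HFD. Of 19 mitochondrial aminoacyl-tRNA synthetases, 9 (47.4%) were called lower in HFD than in sHFD and 3, Nars2, Rars2 and Vars2, in HFD vs ND. Rars2, which charges the arginine tRNA, stood at 23.0, 27.6 and 29.5 TPM in sHFD, 10.7, 28.8 and 17.1 TPM in ND and 7.81, 8.54 and 7.16 TPM in HFD. Its log2 difference was -1.64 from sHFD (SE 0.27, adjusted p = 0.0018, limma) and -1.07 from ND (SE 0.27, adjusted p = 0.0295, limma).

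Of 12 genes for transcription and replication of mitochondrial DNA, 6 (50%) were called lower in HFD than in sHFD and 2, Polrmt and Top1mt, in HFD vs ND. Polrmt, the mitochondrial RNA polymerase, stood at 21.2, 20.2 and 17.0 TPM in sHFD, 14.4, 17.6 and 12.5 TPM in ND and 8.40, 8.34 and 8.29 TPM in HFD. The HFD libraries were below all others and nearly level among themselves. The medians of the translation factors, the synthetases and the DNA genes in HFD vs sHFD were -0.61, -0.52 and -0.63, each further from 0 than that of the ribosomal proteins. Whether the lists differ was not tested. In sHFD vs ND, 0 genes of these 4 lists were called (limma). At an unadjusted p under 0.05, 3 assembly genes, 3 translation factors, 1 synthetase and 0 of the DNA genes were higher (limma), beside 3.7% of all genes. The medians of the lists were 0.13, 0.35, 0.26 and 0.27 in that order.

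The respiratory chain and the cytosolic ribosome were set beside these lists, with no test of a difference between lists. Of the 83 nuclear respiratory chain genes, whose proteins join those made on the mitochondrial ribosome, 5 (6.02%, beside 23.9% of all genes) were called lower in HFD than in sHFD (Ndufb10, Ndufs7, Ndufs8, Sdha and Uqcrc1). Their median there was -0.32, next to -0.33 for the 78 members. In HFD vs ND 0 were called, and 0 had an unadjusted p under 0.05 (limma), with a median of -0.01. In sHFD vs ND 0 were called and 9 were higher at an unadjusted p under 0.05 (limma), with a median of 0.34. That median was further from 0 than the 0.21 of the 78 members. Of the 79 cytosolic ribosomal proteins none was called in any comparison, and 0 had an unadjusted p under 0.05 (limma). Their median in HFD vs sHFD was 0.17, on the other side of the all-gene median of -0.16 from that of the mitochondrial ribosomal proteins.

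Of 10 regulators of nuclear genes for mitochondria, 2 were called higher and 2 lower in HFD than in sHFD (limma), beside 10.3% and 23.9% of all genes. Gabpb1, a partner of the ETS factor GABP, stood at 35.3, 53.5 and 37.1 TPM in sHFD and at 69.0, 88.1 and 81.6 TPM in HFD, a log2 difference of 0.93 (SE 0.21, adjusted p = 0.0058, limma). Myc, itself an immediate-early gene, stood at 17.5, 29.9 and 17.3 TPM in sHFD and at 73.9, 75.2 and 100 TPM in HFD, with 82.6 TPM in ND replicate 1. Esrra, a nuclear receptor for genes of energy metabolism, was at 97.2, 86.5 and 76.0 TPM in sHFD and at 51.1, 42.7 and 45.1 TPM in HFD, a log2 difference of -0.89 (SE 0.19, adjusted p = 0.0051, limma). The fourth was Ppargc1b, called lower. In HFD vs ND none of the 10 was called, and 2 were higher and 1 lower at an unadjusted p under 0.05 (limma), beside 6.37% and 23.4% of all genes.

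The members lie on 17 chromosomes, 11 of them on chromosome 11. A start of another gene on the opposite strand lay within 1000 bases of the start of 33 of the 78 members, or 42.3%, beside 15.2% of all genes tested, 37.3% of the respiratory chain genes and 20.3% of the cytosolic ribosomal proteins. In some of these pairs the stretch between the starts lies between the genes. In others, such as Mrpl48 with Rab6a, Mrpl43 with Twnk and Mrpl36 with Ndufs6, the genes overlap at their starts and the stretch lies inside both. Of 30 members whose partner was tested (29 pairs, since Mrpl46 and Mrps11 are each other's partner), 9 were called lower in HFD than in sHFD. Of the 30 partners, 10 were called lower and 2 higher, beside 23.9% and 10.3% of all genes. In 2 of the 9 the partner was called lower too, and in 0 it was called higher, and the other 8 partners called lower stood beside members that were not called. Both genes were called lower in Mrps5 with Zfp661, whose log2 difference was -1.37 (SE 0.25, adjusted p = 0.0026, limma), and Mrps34 with Eme2, at -0.85 (SE 0.20, adjusted p = 0.0072, limma). Zfp661 was near the floor, at 2.55, 3.05 and 2.42 TPM in sHFD and 0.16, 0.36 and 0.81 TPM in HFD. Mrpl49, by contrast, was called at -0.94 on the log2 scale (SE 0.23, adjusted p = 0.0097, limma) while its partner Fau, which encodes a cytosolic ribosomal protein, had 0.14 (SE 0.27, adjusted p = 0.705, limma). In all, 17 members shared exon sequence with another protein-coding gene, and for these the levels depend on how reads were assigned. Among the 17 were Mrpl9, Mrpl49, Mrps6 and Mrps30.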

How the data were processed

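Messenger RNA from cardiomyocytes was sequenced in 9 libraries, 3 for each maternal diet, after mRNA isolation from total RNA per the labels' protocols. The authors deposited 1 table of TPM values for 18738 genes, in which 0 mitochondrially encoded genes are listed and each column sums to 1000000 within rounding. Per the submitters' processing notes, the tool was RSEM 1.3.1 and the build GRCm38, with no role stated. The sources used here do not give the aligner, the annotation or the use of strand. TPM keeps no read number, so the depth and the precision it gives are unknown. Columns named CON, MID and HIGH were read as ND, sHFD and HFD by name.

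Values were taken as log2(TPM + 1), a scale that understates differences of low genes. All 3 diets were fitted at once in limma 3.58.1 (R 4.3.3, 6 residual degrees of freedom, intensity trend) on the 13655 genes that averaged 1 TPM or more, two-sided, with Benjamini-Hochberg adjustment and a threshold of 0.05. An exact permutation of 3 against 3 libraries cannot go below 0.1. The script was tested on simulated data with 200 changed genes in each comparison. At a log2 change of 0.5 it called 3, 2 and 2 of 67 genes in HFD vs ND, sHFD vs ND and HFD vs sHFD. At 1.0 it called 37, 33 and 37 of 67, and at 2.0 it called 62, 62 and 61 of 66. In all, 105, 103 and 110 genes were called in the simulations, but 1484, 1 and 4665 in the data. The p needed for a call depends on that number, so the shares recovered do not carry over to the data. A member that was not called may still differ. Lengths came from GENCODE transcripts, positions and promoter windows from RefSeq (GRCm38.p6). Members, lists and named genes were chosen with earlier results of these data known. Named members were the 3 highest and 3 lowest of each subunit, in each comparison up to 5 a direction with the smallest p among called genes without overlap (filled to 3 by p), the 3 widest ranges and 12 genes of known role, and of each other list the 2 smallest p. Alternatives covered the scaling, the pseudocount, the filter, the variance trend, the libraries fitted and, added after the data were seen, removal of a length or GC trend.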

Additional observations from a re-analysis of the deposited data

How the results depend on the processing

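In HFD vs ND, the 3 members called lower became 1 with median-ratio scaling, quantile normalization, no filter on low values, no intensity trend, or removal of a GC or length trend, and 0 with only the 2 diets compared. Leaving out 1 library at a time gave 0 to 16, with 16 (20.5%) without ND replicate 1, where 20.9% of all genes were called lower. Members called higher rose from 0 to 1 (Mrps31) with median-ratio scaling or the length trend removed. The medians of -0.15 for Mrpl and Mrps turned to 0.01 and 0.0 with median-ratio scaling and to 0.03 and 0.02 with the length trend removed. Median-ratio scaling, quantile normalization and both trend removals bring the median of all genes to between -0.02 and 0.02 in HFD vs ND and HFD vs sHFD, from -0.14 and -0.16, so differences there are relative to that shift.

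In HFD vs sHFD, the 25 members called lower became 15 with median-ratio scaling, 17 with the GC trend removed, 17 with the length trend removed, 19 with quantile normalization and 20 with no filter, beside 19.2%, 20.6%, 19.7%, 17.6% and 16.0% of all genes. Leaving out 1 library gave 13 to 29. Members called higher rose from 0 to 1 with the GC trend removed (Mrpl9), 2 with median-ratio scaling (Mrpl9 and Mrps30) and 3 with the length trend removed (Mrpl9, Mrpl22 and Mrps30). The medians moved to -0.19 (Mrpl) and -0.15 (Mrps) with the GC trend removed and to -0.17 and -0.10 with the length trend removed, and that of Mrps to -0.16 with median-ratio scaling. In sHFD vs ND, leaving out 1 library gave 0 to 1 member called higher, the 1 being Mrpl47 without ND replicate 2. Uncalled differences between sHFD and ND ran from -0.16 to 0.01 for Mrpl24 and from -0.29 to 0.09 for Mrps24 with 1 library left out, and both reversed without ND replicate 3 (Mrps24 to 0.02). Beyond the constructions named, the cause was not tested.

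With a replicate block the members called lower were 2 in HFD vs ND, 0 in sHFD vs ND and 25 in HFD vs sHFD. Same-numbered libraries of different diets had correlations of their deviations from -0.287 to 0.413 over 9 pairs, 4 of them over 0.1. Of 9 libraries, 4 correlated best with their own number. The labels do not say whether the numbers pair samples, and these values cannot decide it. Depth limits cannot be given, since TPM holds no counts.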
